A study of Mus musculus with 6 samples.

Results

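The cytosolic ribosomal protein genes were described in bulk RNA-seq of the mouse mesonephros, the embryonic tissue that holds the Wolffian duct and its mesenchyme and that forms the epididymis in males. Members were the rows of the deposited gene table whose symbol begins with Rpl or Rps and a number, together with Rplp0, Rplp1, Rplp2 and Rpsa, leaving out the Rps6 kinases and symbols that end in -ps and a number. This gave 84 members of 14366 listed genes, 50 of the large and 34 of the small ribosomal subunit. Of these, 83 are protein-coding in the annotation and 1, Rpl6l, is a processed pseudogene. The rule takes 7 symbols that are not core subunits of the ribosome, namely the paralogs or copies Rpl7l1, Rpl22l1, Rpl36al, Rps27l, Rps27rt and Rpl6l, and Rps19bp1, whose product binds the protein made by Rps19. Fau and Rack1, which also make parts of the ribosome, fall outside the rule and are given separately.

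All 6 libraries came from male embryos at embryonic day 16.5. The Gata2cKO group (3 libraries) had the genotype Osr2Cre+;Gata2-flox/flox, and the control group (3 libraries) had Osr2Cre+;Gata2-flox/+. Both groups therefore carry the Osr2-driven Cre recombinase, which is active in mesenchyme, and controls have 1 floxed allele. The sources used here do not say whether each library is a separate embryo or a pool. The p-values therefore rest on the spread of these libraries, which may be technical in part. Gata2 itself had 431, 530 and 416 TPM in libraries labelled Gata2cKO, against 384, 464 and 546 TPM in control libraries. The groups overlapped for Gata2, so its level over the whole gene does not check the labels, and the sources used here do not name the floxed exons. The group names below are those of the labels.

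Each ribosome carries 1 copy of nearly every ribosomal protein, so cells make these proteins in matched amounts. Their mRNAs are among the most abundant in growing cells, and most begin with a run of pyrimidine bases, the terminal oligopyrimidine (TOP) tract. Through that tract the mTOR pathway sets how strongly they are translated, a step that mRNA levels do not show. Single ribosomal proteins can be limiting: in humans, loss of 1 copy of RPS19 or of several other members causes Diamond-Blackfan anaemia.

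Start regions of 9 members are shown because the tract is the feature these mRNAs are known for, and because most of the 9 carry the differences described below. Each is 50 bases, 30 before and 20 from the start annotated by RefSeq (GRCm38.p6), written in the direction of transcription, with the longest unbroken run of C and T in capitals.
Rps6: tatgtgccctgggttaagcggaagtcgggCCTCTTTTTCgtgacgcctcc
Rpl4: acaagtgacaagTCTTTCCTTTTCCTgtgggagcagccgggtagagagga
Rpl14: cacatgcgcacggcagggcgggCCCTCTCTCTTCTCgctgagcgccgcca
Rpl28: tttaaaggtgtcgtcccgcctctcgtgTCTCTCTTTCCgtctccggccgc
Rps25: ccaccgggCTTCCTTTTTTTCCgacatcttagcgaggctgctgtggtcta
Rpl35: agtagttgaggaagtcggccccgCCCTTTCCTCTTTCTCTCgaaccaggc
Rps27: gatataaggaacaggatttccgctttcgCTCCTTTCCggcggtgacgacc
Rpl36al: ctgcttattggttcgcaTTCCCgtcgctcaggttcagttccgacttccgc
Rps3a1: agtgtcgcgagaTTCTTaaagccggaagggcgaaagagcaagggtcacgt
The windows lie at chr4:86857348-86857397 (Rps6, minus strand), chr9:64173357-64173406 (Rpl4, plus), chr9:120571487-120571536 (Rpl14, plus), chr7:4792935-4792984 (Rpl28, plus) and chr9:44407684-44407733 (Rps25, plus). Those of the other four lie at chr2:39005112-39005161 (Rpl35, minus), chr3:90213629-90213678 (Rps27, minus), chr12:69184048-69184097 (Rpl36al, minus) and chr3:86142649-86142698 (Rps3a1, minus). The run is 18 bases long in Rpl35, 14 in Rpl4, Rpl14 and Rps25, 11 in Rpl28, 10 in Rps6 and 9 in Rps27. In the printed windows of Rpl36al and Rps3a1 the longest run has 5 bases. The search described below, which reaches further from the start, found a longer run in Rpl36al and none in Rps3a1. In Rps6 the run spans the annotated start, beginning 1 base before it, whereas in Rps25 it begins 22 bases before it.

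Across the RefSeq table, 63 of the 84 members matched a promoter by symbol. A C at the annotated start followed by 4 or more C or T stood in 14 of the 63 (22.2%), against 3.01% of 27025 genes in the table. A search chosen after the sequences had been seen, for a C followed by 7 or more C or T that begins within 40 bases of the start, found 48 of 63 (76.2%), against 28.5% of genes. Over 250 bases before to 50 bases after the start, on both strands, GCCATNTT stood in 20.6% of members and 6.96% of genes, and CCGGAAGT in 19.0% and 4.31%. The E-box CACGTG stood in 9.52% and 8.09%, and the TATA motif TATAAA in 11.1% and 15.7%. These are matches of letters only, and annotated starts can miss the start used in this tissue.

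The members were among the most abundant transcripts of the tissue. TPM (transcript abundance per library total) scales reads for transcript length and library total, so members can be compared with each other. Summed over the 84 members, TPM was 194955, 177116 and 200170 in Gata2cKO libraries, against 171218, 186063 and 186010 in control libraries. That is 19.5%, 17.7% and 20.04% of all listed TPM in Gata2cKO libraries, against 17.2%, 18.6% and 18.6% in control libraries. Gata2cKO replicate 2 lay below control replicates 2 and 3, so the groups overlapped, and the ratio of the group means was 1.05. Large subunit genes gave 1.29, 1.33 and 1.28 times the sum of small subunit genes in Gata2cKO libraries and 1.23, 1.32 and 1.35 times in control libraries.

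The mitochondrially encoded share of TPM, which enters the same total, was 15.2%, 13.2% and 13.7% in Gata2cKO libraries, against 21.9%, 16.3% and 14.2% in control libraries. With those genes taken out of the total, the members held 23.01%, 20.4% and 23.2% in Gata2cKO libraries, against 21.97%, 22.3% and 21.7% in control libraries. The ratio of group means for this share was 1.01, and the 3 controls lay within the range of the Gata2cKO libraries. The gap between the group means was thus smaller once mitochondrial genes were left out.

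**Figure D1:**
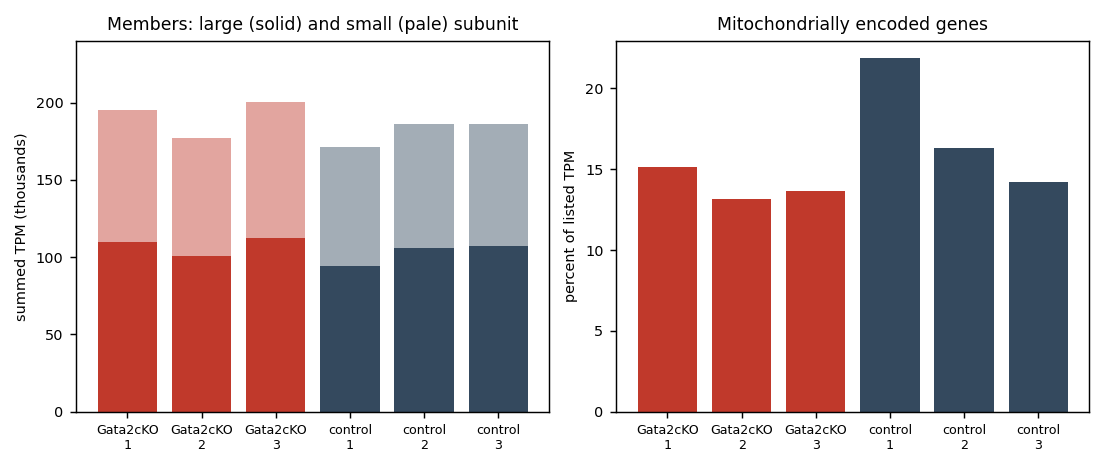
Summed TPM of the 84 ribosomal protein genes (left, axis in 1000 TPM, large subunit solid and small subunit pale) and the percent of listed TPM from mitochondrially encoded genes (right), 1 bar per library, Gata2cKO red and control dark blue. Member sums run from 177116 to 200170 TPM in Gata2cKO and from 171218 to 186063 TPM in control libraries, and control replicate 1 has both the lowest member sum and the highest mitochondrial share, 21.9%.

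Single members differed over 3 orders of magnitude. The median member had a mean of 1986 TPM over the 6 libraries. Of the 84, 62 were above 1000 TPM and 13 under 500 TPM, and 49 lay within 2-fold of the median. Small subunit genes had a median of 2281 TPM and large subunit genes 1701 TPM. The order of the members was nearly the same in both groups, with a Spearman rho of 0.986 between the Gata2cKO and control means across the 84 genes, which share libraries and are not independent points.

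At the top was Rplp1, a protein of the stalk that recruits translation factors to the ribosome. It had 11633, 10270 and 11797 TPM in Gata2cKO libraries, against 9698, 9915 and 10044 TPM in control libraries, and ranked 7 among all genes. Rps12 had a mean of 5679 TPM, Rpl41, which encodes the shortest ribosomal protein, 5457 TPM and Rpl13 5008 TPM. Rps15 had a mean of 4501 TPM. Over the libraries, the ranges of Rpl41 and Rpl13 overlapped each other and those of Rps12 and Rps15, so their places are not settled. Every value of Rps12 lay above every value of Rps15, and Rplp1 lay above every other member in each library.

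Rpl24, a core large subunit gene, was lowest, at 2.62, 4.37 and 2.64 TPM in Gata2cKO libraries, against 2.11, 2.87 and 2.99 TPM in control libraries. The pseudogene Rpl6l had a mean of 19.4 TPM, Rps19bp1 66.4 TPM and Rpl13a 76.9 TPM. Rps27rt, a copy of Rps27, had a mean of 147 TPM and the paralog Rps27l 196 TPM. Rpl24 and Rpl13a encode core proteins like most members, yet their TPM lay far below the median of their subunit.

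**Figure D2:**
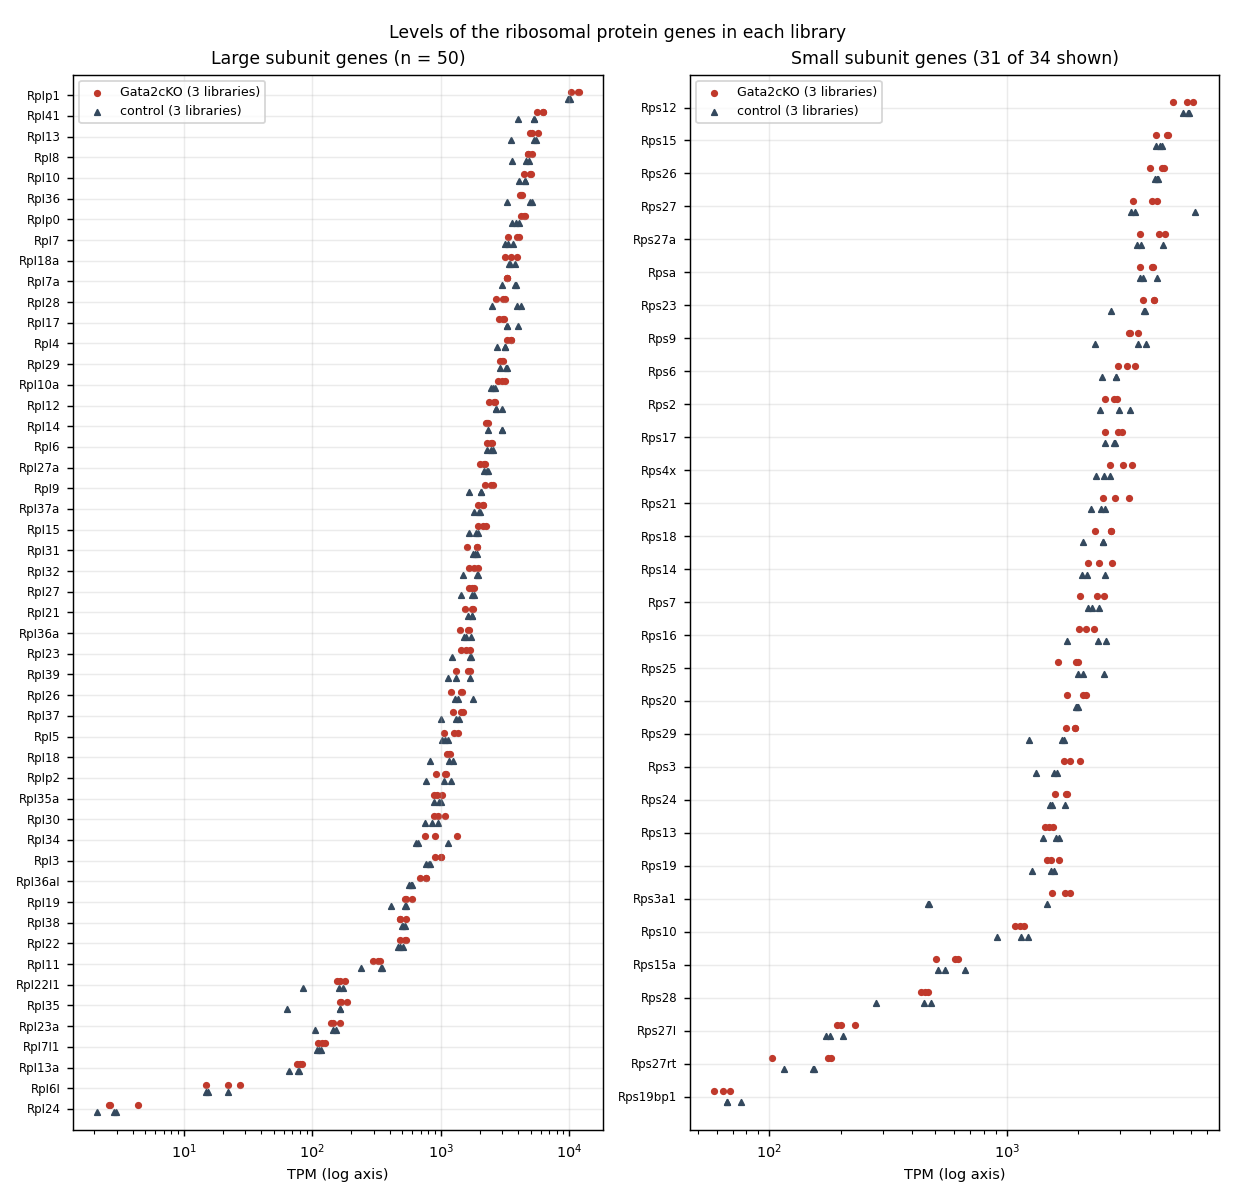
TPM of the ribosomal protein genes reported here in each library on a log axis, large subunit left and small subunit right, sorted by mean; red circles are the 3 Gata2cKO and dark blue triangles the 3 control libraries. Most members lie above 1000 TPM with both groups intermixed, Rplp1 stands at the top, Rpl24 lies at 2.11 to 4.37 TPM, and Rps3a1 has 2 control libraries far to the left.

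Ribosomal protein genes have many processed copies in the genome, and reads from a copy cannot be told from reads of the gene where they match. Transcripts of the members were divided into overlapping windows of 50 bases, and each window was looked up in all other annotated transcripts. The median member shared 59.9% of its windows with another gene, and 82 of 84 shared some with a pseudogene. Rps27 shared 98.6%, Rpl35 95.1%, Rpl5 93.8%, Rpl9 93.3%, Rpl10 92.1% and Rps27rt 91.1%. For Rpl35 the gene with the largest part was Wdr38, at 59.0% of the windows. Rps19bp1 shared 0%. Levels of members with shared windows are therefore uncertain, since the sources used here do not say how such reads were assigned.

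Across the 84 members the Spearman rho of the shared percent with the mean TPM was 0.03. It was 0.21 with the ratio of a member's highest to lowest TPM over the 6 libraries. With the standard error of a member's log2 fold change, given below, it was 0.19. The shared percent counts windows found in any annotated transcript, whether or not that transcript was expressed here. These values therefore cannot show what shared reads did to the levels, which was not tested. Rpl24 shared 81.7% of its windows, 69.4% with Gm28037, an annotated gene that overlaps it on the same strand and was not analysed here. The part of shared sequence in the low level of Rpl24 was not tested. Rps12, at a mean of 5679 TPM, shared 85.7% of its windows with Rps12-ps3. Rps12-ps3 itself was listed at 38.0, 36.5 and 45.6 TPM in Gata2cKO libraries, against 70.6, 35.7 and 32.2 TPM in control libraries. The noncoding gene Gm10076, which holds 43.9% of the windows of Rpl41, was listed at 4293, 4087 and 4229 TPM in Gata2cKO libraries, against 3599, 4025 and 4039 TPM in control libraries, close to Rpl41 itself.

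**Figure D3:**
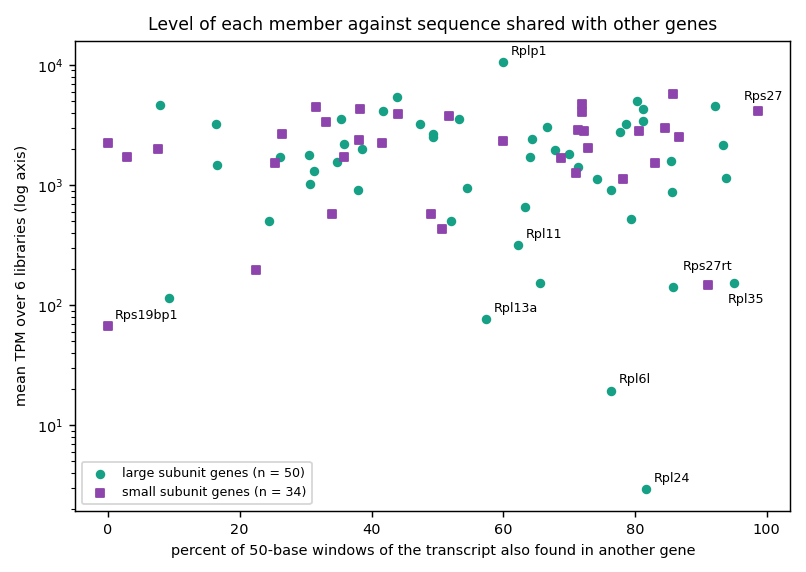
Mean TPM over the 6 libraries (log axis) against the percent of 50-base windows of the transcript also found in another gene, 1 point per member, circles for large and squares for small subunit genes. High levels occur across the whole axis, up to Rps27 at 98.6%, and the lowest members lie at 0% (Rps19bp1), 57.4% (Rpl13a), 76.4% (Rpl6l) and 81.7% (Rpl24).

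The comparison of libraries labelled Gata2cKO with control libraries asks how mesenchymal loss of Gata2 changes the mesonephros, and here what it did to the ribosomal protein genes. No member passed the threshold in either direction (limma on log2(TPM + 1), Benjamini-Hochberg adjusted over 12300 tested genes, threshold 0.05). Over all tested genes 5.73% were called higher and 1.74% lower. All 84 members passed the filter on low values. At an unadjusted limma p under 0.05, 8 members were higher, Rpl3, Rpl9, Rpl10a, Rpl36al, Rpl41, Rps3, Rps3a1 and Rps4x, and 0 were lower. Over all tested genes 19.2% were higher and 8.17% lower at that unadjusted threshold.

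By the adjusted p in the authors' deposited table, 1 member was higher, Rpl36al, and 2 were lower, Rpl14 and Rpl17. Over the 14366 genes of the authors' deposited table, 6.69% were higher and 6.58% lower by the same threshold. Counting members whose Gata2cKO libraries all lay above all controls gave 14, against 23.4% of tested genes. Those with all Gata2cKO libraries below all controls were 3, Rpl12, Rpl17 and Rps25, against 10.5% of tested genes.

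The precision behind these values was moderate. The median standard error of a member's log2 fold change was 0.11, with a range of 0.08 to 0.41. For 71 of the 84 members the 95% confidence interval lay within a 1.5-fold change either way, and for 82 within a 2-fold change. Each log2 fold change is the Gata2cKO mean less the control mean of log2(TPM + 1), so the change of low genes such as Rpl24 is understated.

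The median log2 fold change of the members was 0.09, against 0.05 over all tested genes. It was 0.11 for large and 0.07 for small subunit genes. Of the members 61 had positive values and 23 negative ones, 72.6% positive against 59.5% of all tested genes. This split depended on scaling: with median-of-ratios scaling 49 were positive and 35 negative and the median was 0.03, against -0.00 over all tested genes. With the total taken without mitochondrial genes the split was 48 and 36. The same rescaling moved all calls, of which 76.7% were higher as deposited, 55.7% with median-of-ratios scaling, 62.8% with upper-quartile scaling and 60.7% without mitochondrial genes in the total.

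**Figure D4:**
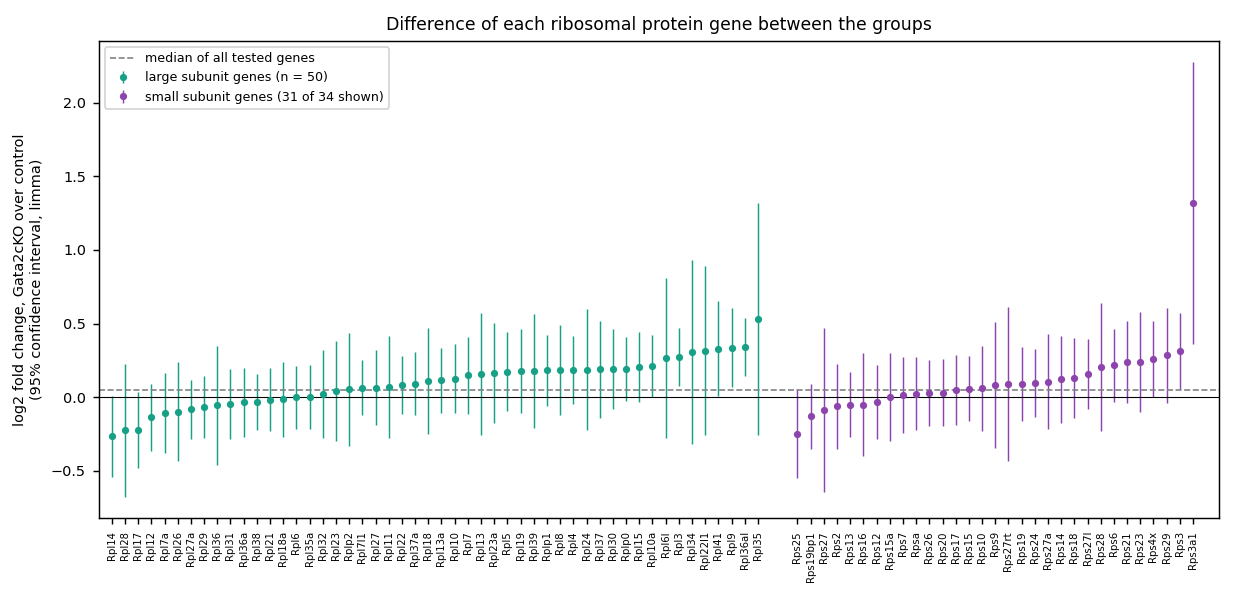
Log2 fold change of the members reported here, Gata2cKO over control, with its 95% confidence interval from limma, large subunit green and small subunit purple, sorted within subunit; the dashed line is the median of all tested genes, 0.05. Most intervals include 0, those of 71 of all 84 members lie within a 1.5-fold change either way, and Rps3a1 stands apart at 1.32 with the widest interval.

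Rpl36al, a copy of Rpl36a that encodes nearly the same large subunit protein, had the smallest adjusted p of the members. It had 771, 685 and 761 TPM in Gata2cKO libraries, against 563, 597 and 587 TPM in control libraries. The groups did not overlap. The log2 fold change was 0.34 (SE 0.08), with a limma adjusted p of 0.0506. It was 0.0490 when genes needed 5 TPM in at least 3 libraries, and 0.0388 without control replicate 1. In the authors' deposited table Rpl36al had a log2 fold change of 0.28 and an adjusted p of 0.0498. Without Gata2cKO replicate 1 the limma adjusted p was 0.199, and with median-of-ratios scaling the smallest adjusted p of any member was 0.105.

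Rpl36al made up 31.7%, 32.6% and 31.96% of the summed TPM of Rpl36a and Rpl36al in Gata2cKO libraries, against 24.7%, 27.5% and 27.9% in control libraries. The groups did not overlap for this share. Rpl36a itself had a log2 fold change of -0.04 (limma adjusted p = 0.849). The test of the difference between the copies was not made.

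Rps3a1, a small subunit protein gene, had the widest split between libraries. It had 1755, 1552 and 1852 TPM in Gata2cKO libraries, against 466, 1484 and 470 TPM in control libraries. Control replicate 2 stood with the Gata2cKO libraries, although just below them, while the other 2 controls lay over 3-fold lower. The log2 fold change was 1.32 (SE 0.41, 95% interval 0.36 to 2.27) and the limma adjusted p was 0.0904. Without control replicate 2 it was 1.87 with an adjusted p of 0.00362, and without control replicate 1 it was 1.04 with an adjusted p of 0.124.

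Among all tested genes, chosen after the values of Rps3a1 were seen, 2 others had control replicates 1 and 3 low and control replicate 2 near the Gata2cKO group to that degree, Sult1e1 and Lefty1. Both were low, under 7 TPM in every library. Rps3a1 lies on chromosome 3 from 86137940 to 86142702 (GRCm38, minus strand) and shared 71.0% of its windows with other genes, the nearest being Rps3a2 at 61.4%, which was not analysed here. As printed above, the longest pyrimidine run in the 50 bases around its RefSeq start has 5 bases. Its start in the GENCODE annotation, at 86142702, lies outside that window, which ends at 86142698, so a run there is not shown.

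Other large subunit members with unadjusted p under 0.05 moved less. Rpl3, which lines the site where peptide bonds form, had 1007, 901 and 995 TPM in Gata2cKO libraries, against 769, 802 and 825 TPM in control libraries (log2 fold change 0.28, limma adjusted p 0.0871). Rpl9 had 2466, 2225 and 2523 TPM in Gata2cKO libraries, against 1651, 2040 and 2048 TPM in control libraries (0.34, adjusted p 0.114). Rpl41 had 6288, 5620 and 6265 TPM in Gata2cKO libraries, against 3966, 5311 and 5290 TPM in control libraries (0.33, adjusted p 0.173). In all 3 genes every Gata2cKO library lay above every control, and for Rpl41 and Rpl9 control replicate 1 was well below the other controls.

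Of the small subunit, Rps3, which lies at the mRNA entry channel, had 1857, 1746 and 2036 TPM in Gata2cKO libraries, against 1331, 1576 and 1629 TPM in control libraries (log2 fold change 0.32, limma adjusted p 0.119). Rps29 had 1941, 1776 and 1935 TPM in Gata2cKO libraries, against 1246, 1738 and 1703 TPM in control libraries (0.28, adjusted p 0.234). Its unadjusted limma p was 0.0772. Rps4x, encoded on the X chromosome, had 3089, 2731 and 3377 TPM in Gata2cKO libraries, against 2374, 2718 and 2568 TPM in control libraries (0.26, adjusted p 0.179). For Rps29 and Rps4x the lowest Gata2cKO library lay just above the highest control.

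Rpl14, of the large subunit, had the most negative value. It had 2289, 2243 and 2344 TPM in Gata2cKO libraries, against 2331, 2966 and 3014 TPM in control libraries. Control replicate 1 lay among the Gata2cKO libraries and the other 2 controls above them. Its log2 fold change of -0.26 (SE 0.12) had a limma adjusted p of 0.199, and without control replicate 1 it was -0.38 with an adjusted p of 0.0149. In the authors' deposited table Rpl14 had a log2 fold change of -0.33 and an adjusted p of 0.0264.

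Rpl28 had 2697, 3136 and 3052 TPM in Gata2cKO libraries, against 2502, 3921 and 4197 TPM in control libraries. Control replicate 1 was the lowest library and the other 2 controls were the highest. The log2 fold change was -0.22 (limma adjusted p 0.494) and -0.46 without control replicate 1 (adjusted p 0.0205). Without that library Rpl36 was also called lower, at -0.27 (adjusted p 0.0435). Calls rose over all genes too in this setting, from 7.47% to 12.5% of tested genes. Of 12212 tested genes 1109 were higher and 419 lower, against 1 and 4 of the 84 members. Rpl36 had 4309, 4185 and 4106 TPM in Gata2cKO libraries, against 3257, 4967 and 5140 TPM in control libraries, the same arrangement as Rpl28.

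Rpl17 and Rps25 were lower in Gata2cKO without overlap. Rpl17, of the large subunit, had 3049, 2820 and 3081 TPM in Gata2cKO libraries, against 3980, 3264 and 3249 TPM in control libraries (log2 fold change -0.22, limma adjusted p 0.241), and an adjusted p of 0.0492 in the authors' deposited table. Rps25, a small subunit protein that some viral and cellular mRNAs need for their translation, had 1992, 1651 and 1968 TPM in Gata2cKO libraries, against 2582, 2101 and 1996 TPM in control libraries (-0.25, adjusted p 0.263). For both genes control replicate 1 was the highest library. The nearest pair of Rps25 values between the groups, 1992 and 1996 TPM, differed by less than the spread within either group.

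Control replicate 1 set several members apart. For 13 of 84 members (15.5%) it lay over 0.5 log2 units from the mean of the other controls, 11 lower and 2 higher, against 9.97% of all tested genes. Of the 12300 tested genes 682 were lower and 544 higher by that measure. Between control replicates 2 and 3 such a gap was seen for 2 of 84 members and for 272 of 12300 tested genes. Rpl35 had 168, 165 and 186 TPM in Gata2cKO libraries, against 63.1, 163 and 165 TPM in control libraries. Its log2 fold change of 0.53 (limma adjusted p 0.354) was 0.07 without control replicate 1. Rpl22l1, a paralog that can take the place of Rpl22, had 165, 155 and 179 TPM in Gata2cKO libraries, against 84.8, 174 and 160 TPM in control libraries. The log2 fold change of Rpl22l1, 0.32 (limma adjusted p 0.449), was -0.01 without control replicate 1. In the other libraries Rpl35 lay between 163 and 186 TPM and Rpl22l1 between 155 and 179 TPM.

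The opposite was seen for Rps27 and Rpl34. Rps27 had 4291, 3407 and 4097 TPM in Gata2cKO libraries, against 6235, 3457 and 3330 TPM in control libraries, and its log2 fold change of -0.09 was 0.21 without control replicate 1. Rpl34 had 895, 758 and 1331 TPM in Gata2cKO libraries, against 1126, 638 and 659 TPM in control libraries, so Gata2cKO replicate 3 and control replicate 1 were both high. Rps27 and Rpl34 were singled out after their values were seen, as were Rpl12 and Rpl36.

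**Figure D5:**
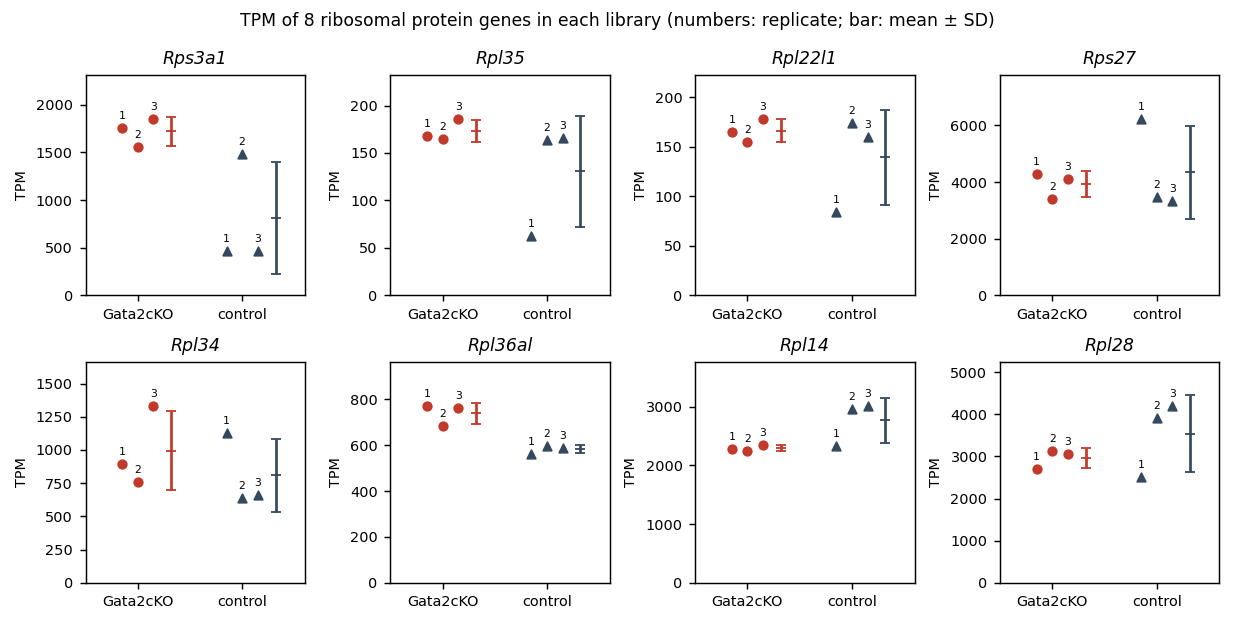
TPM of 8 members, chosen after their values were seen, in each library, Gata2cKO left (red circles) and control right (dark blue triangles), labelled by replicate number, with mean ± SD (n = 3 each). Rps3a1 has control replicates 1 and 3 low, Rpl35 and Rpl22l1 have control replicate 1 low, Rps27 has it high, and Rpl36al shows groups that do not overlap.

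Differences between control libraries moved with base composition, and not those of control replicate 1 alone. Across 83 members with a transcript sequence, the log2 difference of control replicate 1 from the other controls had a Pearson r of -0.21 and a Spearman rho of -0.27 with the percent of G and C in the transcript. Across 12228 tested genes with a sequence the same values were -0.32 and -0.40. For control replicate 2 less control replicate 3 they were -0.20 and -0.42 across the members, and -0.36 and -0.44 across all tested genes with a sequence. The relation was thus also present between the controls for which 2 members differed by over 0.5 log2 units. Split by G and C content into 3 parts of 28, 27 and 28 members, the median difference of control replicate 1 from the other controls was -0.06, -0.15 and -0.27 from the lowest to the highest part. Members share libraries and are not independent points. The part of base composition in any single member's value was not tested.

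Members known from particular roles showed small differences. Among stalk proteins, Rplp0 had 4404, 4220 and 4532 TPM in Gata2cKO libraries, against 3603, 3855 and 4052 TPM in control libraries (log2 fold change 0.19, limma adjusted p 0.227). Rplp1 had 0.18 (adjusted p 0.301), and Rplp2 0.05 (adjusted p 0.864), with 923, 1072 and 1091 TPM in Gata2cKO libraries, against 767, 1053 and 1196 TPM in control libraries. The groups did not overlap for Rplp0 and Rplp1 and did for Rplp2.

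Rps6, whose protein is phosphorylated downstream of mTOR, had 3219, 2941 and 3489 TPM in Gata2cKO libraries, against 2526, 2889 and 2878 TPM in control libraries (log2 fold change 0.22, limma adjusted p 0.233). Rpl10a, whose protein marks a subset of ribosomes in mouse cells, had 3133, 2780 and 2994 TPM in Gata2cKO libraries, against 2467, 2563 and 2651 TPM in control libraries (0.21, adjusted p 0.181). In both genes the groups did not overlap and neither passed the threshold.

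Rpl5 and Rpl11 bind the 5S rRNA and, when ribosome assembly is disturbed, the p53 regulator Mdm2. Rpl5 had 1266, 1048 and 1350 TPM in Gata2cKO libraries, against 1012, 1136 and 1085 TPM in control libraries (log2 fold change 0.17, limma adjusted p 0.365). Rpl11 had 327, 298 and 337 TPM in Gata2cKO libraries, against 239, 340 and 349 TPM in control libraries (0.07, adjusted p 0.796). The groups overlapped for both.

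Rpl38, which in mouse embryos is needed for translation of several Hox mRNAs, had 536, 478 and 480 TPM in Gata2cKO libraries, against 504, 523 and 500 TPM in control libraries. Its log2 fold change was -0.03, with a 95% interval of -0.22 to 0.16. Rps19, the gene most often mutated in Diamond-Blackfan anaemia, had 1540, 1476 and 1666 TPM in Gata2cKO libraries, against 1284, 1544 and 1579 TPM in control libraries, with 0.09 and an interval of -0.16 to 0.34. Rpsa, also known as a laminin receptor, had 4148, 3653 and 4082 TPM in Gata2cKO libraries, against 4299, 3634 and 3764 TPM in control libraries, with 0.02 and an interval of -0.22 to 0.27.

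Among the other paralog pairs, Rpl22l1 made up 24.0%, 24.5% and 24.96% of the sum with Rpl22 in Gata2cKO libraries, against 14.3%, 26.4% and 25.8% in control libraries. Rps27l, a p53 target, made up 4.46%, 5.33% and 5.32% of the sum with Rps27 in Gata2cKO libraries, against 3.16%, 4.76% and 5.13% in control libraries. Rpl7l1 made up 2.66%, 3.62% and 2.94% of the sum with Rpl7 in Gata2cKO libraries, against 2.87%, 3.28% and 3.56% in control libraries. The groups overlapped for each of these 3 shares, and control replicate 1 was lowest for Rpl22l1 and Rps27l. Rpl3l, Rpl10l, Rpl39l and Rps4l were not analysed here.

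Other genes of the ribosome and of translation were read from lists chosen by function. Neither Fau nor Rack1 was called. Rack1 had 2160, 1978 and 2265 TPM in Gata2cKO libraries, against 1932, 1890 and 1917 TPM in control libraries (log2 fold change 0.16, limma adjusted p 0.2996). Fau had 3362, 3207 and 3503 TPM in Gata2cKO libraries, against 2254, 3103 and 3240 TPM in control libraries (0.25, adjusted p 0.321). None of 22 other genes with TOP mRNAs was called. At an unadjusted limma p under 0.05, 5 were higher and 1 lower, against 19.2% and 8.17% of all tested genes. Their median log2 fold change was 0.10.

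Of 38 initiation factor genes 1 was called higher, Eif2s3x, the X-linked gene for a subunit of the factor that brings the initiator tRNA. It had 24.7, 25.3 and 23.9 TPM in Gata2cKO libraries, against 12.5, 17.1 and 15.7 TPM in control libraries (log2 fold change 0.68, SE 0.12, limma adjusted p 0.0192). Of 13 elongation and termination factor genes 1 was called higher, Gspt1, the release factor eRF3a. It had 26.7, 27.3 and 27.6 TPM in Gata2cKO libraries, against 22.7, 20.6 and 19.97 TPM in control libraries (0.35, adjusted p 0.0399). The median log2 fold change was 0.11 for initiation and 0.23 for elongation genes, against 0.05 over all tested genes.

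Of 68 ribosome biogenesis genes 2 were called higher. Tsr1, which acts in maturation of the small subunit, had 24.9, 24.7 and 24.8 TPM in Gata2cKO libraries, against 12.6, 19.0 and 14.3 TPM in control libraries (log2 fold change 0.68, limma adjusted p 0.0309). Ftsj3, an rRNA methyltransferase, had 102, 95.7 and 102 TPM in Gata2cKO libraries, against 75.6, 82.7 and 80.6 TPM in control libraries (0.33, adjusted p 0.0443). The median of the list was -0.01. Of 20 RNA polymerase I genes, which transcribe most rRNA, 1 was called lower, Taf1a, with 8.25, 9.17 and 8.02 TPM in Gata2cKO libraries, against 11.2, 10.9 and 11.3 TPM in control libraries (-0.36, adjusted p 0.0447).

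Of 21 genes of the mTOR and Myc pathways 1 was called higher, Mycn, a transcription factor that raises ribosome production, with 69.9, 77.7 and 69.4 TPM in Gata2cKO libraries, against 57.7, 49.9 and 55.7 TPM in control libraries (log2 fold change 0.40, limma adjusted p 0.0375). Of 11 genes of the p53 response to nucleolar stress 1 was called higher, Ccng1, with 79.4, 77.0 and 82.3 TPM in Gata2cKO libraries, against 64.2, 64.4 and 55.2 TPM in control libraries (0.37, adjusted p 0.0443). Mdm4, an inhibitor of p53, had -0.43 (adjusted p 0.0836). Of 76 genes for proteins of the mitochondrial ribosome 1 was called higher, Mrps31, named after its values were seen (0.39, adjusted p 0.0498). The share called higher was between 0 and 9.09% in these lists, against 5.73% of all tested genes, and rests on at most 2 genes a list.

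The 7 called genes of the lists other than the mitochondrial ribosome each lost the call in some removals of 1 library. With all libraries, 705 of the tested genes were called higher and 214 lower. Every removal but that of control replicate 1 left fewer calls, 52 to 223 higher and 22 to 84 lower. Eif2s3x and Tsr1 passed in 2 of the 6 removals, and Gspt1, Ftsj3, Taf1a, Mycn and Ccng1 passed in 1. Adjusted p-values over the removals ran from 0.00950 to 0.0839 for Eif2s3x and from 0.0213 to 0.116 for Tsr1. Eif2s3x, Tsr1 and Taf1a passed under median-of-ratios and upper-quartile scaling and without mitochondrial genes in the total. Gspt1, Ftsj3 and Ccng1 passed under none of these 3, with adjusted p-values of 0.0697, 0.0876 and 0.0851 under median-of-ratios scaling, and Mycn had 0.0751 without mitochondrial genes.

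Markers of the tissue were present in all libraries. Summed mesenchyme markers, 11 of 11 listed, ran from 7837 to 10029 TPM in Gata2cKO and from 7115 to 9122 TPM in control libraries, so the groups overlapped. Of the 11, 1 was called higher and 3 lower, with a median log2 fold change of -0.01. Over all tested genes 5.73% were called higher and 1.74% lower. Among them Tcf21 had 455, 432 and 461 TPM in Gata2cKO libraries, against 722, 738 and 838 TPM in control libraries, and Osr2, the gene the Cre driver is named for, had 126, 136 and 118 TPM in Gata2cKO libraries, against 204, 267 and 312 TPM in control libraries. Summed markers of red blood cells, 9 of 11 listed, ran from 10532 to 13836 TPM in Gata2cKO and from 6874 to 18290 TPM in control libraries, highest in control replicate 1. Summed duct epithelium markers, 14 of 14 listed, ran from 1337 to 1352 TPM in Gata2cKO and from 1032 to 1122 TPM in control libraries. Mast cell markers, 6 of 7 listed, ran from 279 to 306 TPM in Gata2cKO and from 99.3 to 141 TPM in control libraries. Smooth muscle markers (7 of 7) ran from 779 to 858 TPM in Gata2cKO and from 1006 to 1116 TPM in control libraries. In the same order, endothelium markers (8 of 8) had 340 to 370 and 248 to 301 TPM, and macrophage markers (8 of 8) 472 to 528 and 359 to 446 TPM. Nephron markers (3 of 8) had 87.7 to 96.8 and 51.0 to 58.3 TPM. For gonad and germ cell markers and for neural markers the groups overlapped. No listed marker of these lists was at 0 in any library. In bulk tissue fewer cells of a type and less RNA per cell cannot be told apart, and the part of cell composition in the ribosomal protein values was not tested.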

How the data were processed

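Per the labels' protocols, RNA from the PicoPure kit was selected for polyadenylated molecules; the sources used here do not say whether strand was marked. The tools STAR 2.7.11a, DESeq2 and DESeq and the build GRCm38 come from the submitters' processing notes, which give no roles. The authors deposited 1 gene table with a value per gene and library, taken to be TPM from the column sums; the sources used here name no quantifier, TPM keeps no read depth, and depth is unknown. The deposited table also holds the authors' log2 fold change, p-value and adjusted p-value per gene.

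The filter kept the 12300 genes that reached 1 TPM in 3 or more of the 6 libraries. log2(TPM + 1), with a pseudocount of 1, was fitted by group with limma 3.58.1 (trend) in R 4.3.3, a test for normalized values since no counts were analysed, and two-sided p-values were adjusted over all tested genes. The model was tested on simulated data. Sums, levels and medians are descriptions without a test, and the error of each value is the spread over 3 libraries per group.

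Gene positions and transcripts are from GENCODE M21 (GRCm38), promoters from RefSeq (GRCm38.p6). Named members are the 3 highest and 3 lowest by fold change and by level in each subunit, fixed role genes and paralog pairs; named genes of other lists have the smallest adjusted p, up to 2 per list; a few genes that the rules take are not reported here, although they enter all counts, sums and medians. Members and lists were chosen with earlier results of these data known. Alternatives were other pseudocounts, filters and scalings, limma without a trend, a replicate block and leaving out each library.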

Additional observations from a re-analysis of the deposited data

How the results depend on the processing

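The count of called members stayed at 0 in both directions under other pseudocounts, no filter, the 4 other scalings, limma without a trend and the replicate block. It was 1 higher with a filter of 5 TPM. Leaving out single libraries gave 0 to 1 higher and 0 to 4 lower, the 4 lower without control replicate 1. Over all tested genes, removals gave 52 to 1109 higher and 22 to 419 lower. Taking mitochondrial genes out of the total gave 434 higher, and 399 and 343 were lower with median-of-ratios and upper-quartile scaling. The ratio of the small subunit sums, 1.06 as deposited, was 1.02 with median-of-ratios scaling, 1.01 without mitochondrial genes and 1.03 to 1.10 over the removals. The limma log2 fold changes of 13 members named below changed sign, up to 0.32 in the fit to TPM scaled as deposited (Rpl22l1). These 13 are only from the members taken by the naming rules. Other members also changed sign over the removals of 1 library. Among them were Rpl36 (-0.27 to 0.062), Rps15a (-0.074 to 0.11) and Rps16 (-0.21 to 0.060). Under median-of-ratios scaling Rpsa was at -0.035, Rplp2 -0.0062 and Rps15 -0.0031. Without mitochondrial genes Rpsa was at -0.036, Rplp2 -0.0074 and Rps15 -0.0043, and with upper-quartile scaling Rpsa was at -0.017. Over the removals Rpl13 ran from -0.048 to 0.27, Rpl24 from -0.00046 to 0.28, Rps12 from -0.093 to 0.050, Rps27rt from -0.054 to 0.35, Rplp2 from -0.13 to 0.19 and Rpsa from -0.024 to 0.10. Likewise Rpl11 ran from -0.10 to 0.17, Rps19 from -0.0026 to 0.15, Rpl22l1 from -0.0069 to 0.51, Rpl26 from -0.18 to 0.047, Rpl36a from -0.080 to 0.034 and Rps27 from -0.25 to 0.21. The cause was not tested.

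Deviations of same-numbered libraries had correlations of 0.25, -0.07 and 0.04. Gata2cKO replicate 1 correlated best with control replicate 1, and Gata2cKO replicates 2 and 3 with controls of another number. No pairing by number was seen over all replicates, but 3 libraries per group are too few to exclude one. With the replicate block 0 members were called, and 584 genes were higher and 190 lower over all tested genes.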
